A study of Mus musculus with 12 samples.

Results

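The cytosolic ribosomal protein genes and their paralogs were followed on the arrays of peritoneal macrophages (PMs). Members were taken by symbol: every gene with a probe set annotated to it alone whose symbol is *Rpl*, *Rps*, *Rplp* or *Rpsa* with digits and an optional letter, x, y, l or l1, without the Rps6k kinases and without pseudogenes. This gave 48 genes of the 18193 on the array, 22 of the small subunit and 26 of the large subunit, including 6 paralogs (*Rps27l*, *Rps4l*, *Rpl22l1*, *Rpl3l*, *Rpl39l* and *Rpl7l1*). Where a gene had several such probe sets, the one brightest on average over the 12 arrays stood for it. The choice used no difference between groups. Another 28 symbols of the same form, among them *Rplp1*, *Rpl3*, *Rpl5*, *Rpl32* and *Rps12*, were listed only in probe sets that name several loci and are not members.

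The cells were PMs, taken by lavage of the mouse peritoneal cavity and kept as adherent cells, and the labels name the cell type and no strain, age or sex for these arrays. They fell into 6 groups of 2 arrays. Before the exosomes, cells received lipofectamine without an oligonucleotide as read from the labels (Lipofectamin), a scramble control (Scrambled), or antagomir-21 (Antagomir21), an antisense oligonucleotide directed at miR-21. Each of these was then exposed to exosomes, small secreted vesicles, of sensory neurons that overexpressed either miR-21 or a GFP reporter, so every group had received both a transfection step and neuronal exosomes and no group was untreated. The arrays do not read mature miR-21, so neither its delivery nor its blockade is checked here. The labels do not tie the 2 arrays of a group to separate cultures, while the methods describe independently collected biological replicates. P values measure the spread between these arrays.

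A ribosome is built from a small subunit, which holds the mRNA, and a large subunit, which joins amino acids. Each subunit carries ribosomal RNA and many proteins that are made in matched amounts. The mRNAs of these proteins are among the most abundant in most cells. Many begin with a run of pyrimidines, through which growth signals set their translation. The protein genes have left many processed copies in mammalian genomes, which makes single loci hard to read with short probes.

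Pyrimidine runs were looked for in the genomic sequence around the annotated starts, on either side of them. In the RefSeq promoter table (GRCm38.p6), 42 members had 50 annotated promoters, and 52.0% of these held a run of at least 6 C or T bases, beginning with C, that reached within 10 bases of the start, against 22.9% of all 32851 promoters. The windows below run from 80 bases before to 20 bases after the start and are shown for 2 genes with a high signal or a stalk role, for *Rpl12*, for *Rps27* beside its paralog, for the paralog *Rpl22l1* and for *Rps16*. Capitals mark the run.
Rpl4 (chr9:64173307-64173406, plus strand): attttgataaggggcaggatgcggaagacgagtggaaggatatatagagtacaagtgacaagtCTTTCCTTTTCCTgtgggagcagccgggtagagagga
Rplp2 (chr7:141447571-141447670, plus strand): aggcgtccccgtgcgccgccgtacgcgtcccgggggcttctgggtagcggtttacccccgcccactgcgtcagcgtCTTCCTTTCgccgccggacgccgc
Rpl12 (chr2:32961632-32961731, plus strand): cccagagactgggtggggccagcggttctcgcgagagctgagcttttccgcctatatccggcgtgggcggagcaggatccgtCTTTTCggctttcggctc
Rps27 (chr3:90213629-90213728, minus strand): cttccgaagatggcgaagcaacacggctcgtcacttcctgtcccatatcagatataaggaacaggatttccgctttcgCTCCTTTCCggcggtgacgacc
Rps27l, the first of its annotated starts (chr9:66946006-66946105, plus strand): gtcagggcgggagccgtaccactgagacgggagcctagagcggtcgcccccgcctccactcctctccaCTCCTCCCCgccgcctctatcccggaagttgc
Rpl22l1 (chr3:28805428-28805527, plus strand): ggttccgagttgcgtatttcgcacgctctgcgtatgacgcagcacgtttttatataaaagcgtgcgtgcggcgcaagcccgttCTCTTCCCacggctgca
Rps16 (chr7:28350609-28350708, plus strand): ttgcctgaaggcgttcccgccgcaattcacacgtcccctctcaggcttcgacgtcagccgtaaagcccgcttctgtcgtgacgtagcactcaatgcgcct
The run was 13 bases long in *Rpl4*, 9 in *Rplp2*, *Rps27* and *Rps27l*, 8 in *Rpl22l1* and 6 in *Rpl12*. In *Rps16*, no such run reached within 10 bases of the start. In *Rpl4* and *Rps27l* it began at −17 and −12 and ended before the annotated start, so it lies outside the annotated mRNA. It began at −4 in *Rplp2* and −2 in *Rps27* and crossed the start, and at bases 3 and 4 of *Rpl12* and *Rpl22l1*. Over the whole table window, from 250 bases before to 50 after the start and on both strands, CCGGAAG was present in 40.0% of the member promoters and 8.86% of all promoters. The palindrome CTCGCGAG was present in 14% against 0.919%, *Rpl12* among them, and AAGATGG in 16% against 6.34%. TATAAA was found in 12% against 13.6%. No motif contains another, although CCGGAAG and AAGATGG can share AAG where they adjoin. These matches describe letters, and nothing was measured at the promoters.

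The probe sets of most members were bright. A signal here is a deposited log2 value for a probe set, which mixes the abundance of an mRNA with the behavior of its probes, so signals of different genes were not ranked as mRNA amounts. The 48 means over 12 arrays had a median of 12.55, against 7.91 over all genes, and 40 members lay above the third quartile of all genes (9.27). Without the paralogs, the median was 12.48 for 20 small subunit genes and 13.31 for 22 large subunit genes, and it was 9.26 for the 6 paralogs. The brightest small subunit probe sets were those of *Rps29* (17.80 ± 0.58), *Rps28* (16.53 ± 0.52) and *Rps20* (16.17 ± 0.62), and the brightest of the large subunit those of *Rpl4*, whose product lines the peptide exit tunnel (16.03 ± 0.87), and *Rpl13a* (14.87 ± 0.78; all SD, n = 12). *Rps29* ran from 16.78 on an array of lipofectamine with GFP exosomes to 18.77 on an array of scramble with GFP exosomes. Of the 48 kept probe sets, 13 carry the suffix letter x in their name, 19 the letter a, 1 the letter s and 15 none. The median signal was lower on probe sets without a suffix letter, which exist for 26 members. Whether a probe set annotated to 1 gene reads that gene alone was not tested.

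The members also differed in how far they varied from array to array. *Rps27l*, a paralog of *Rps27* known as a p53 target, had the smallest SD over the 12 arrays (0.27, around 11.55), followed by *Rps26* (0.31, around 12.32) and *Rpl35* (0.36, around 14.79). The largest SDs belonged to the dimmest probe sets: *Rps16* (3.06, around 4.85), *Rps4l* (2.15, around 5.98) and *Rpl3l* (2.14, around 5.96). The median SD was 0.57 over the 38 members with a mean of 10 or more and 1.11 over the 10 below, a division set after the levels were seen. Over all genes on the same sides of 10, it was 0.64 and 1.58.

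Of the 10 members with a mean under 10, 6 were also listed in probe sets shared with other loci, and all 6 (*Rpl12*, *Rpl14*, *Rpl37*, *Rpl39*, *Rps16* and *Rps27*) had a shared probe set with a mean above 12. For *Rps16*, the probe set kept by the rule ran from 1.15 to 9.37 over the arrays, while the shared probe sets had means of 12.18 ± 0.86 and 15.16 ± 0.54 (SD, n = 12). *Rps27* had 9.27 ± 0.87 on its own probe set and 16.38 ± 0.50 on the shared one. *Rpl39* had 9.86 ± 0.99 and 15.49 ± 0.54. Which locus a shared probe set reads is not settled by its annotation, so a dim member here is a dim probe set and does not show a low mRNA. The paralogs *Rpl3l*, *Rps4l*, *Rpl39l* and *Rpl7l1* had no shared probe set, and neither had the brighter paralogs *Rps27l* and *Rpl22l1*.

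**Figure D1:**
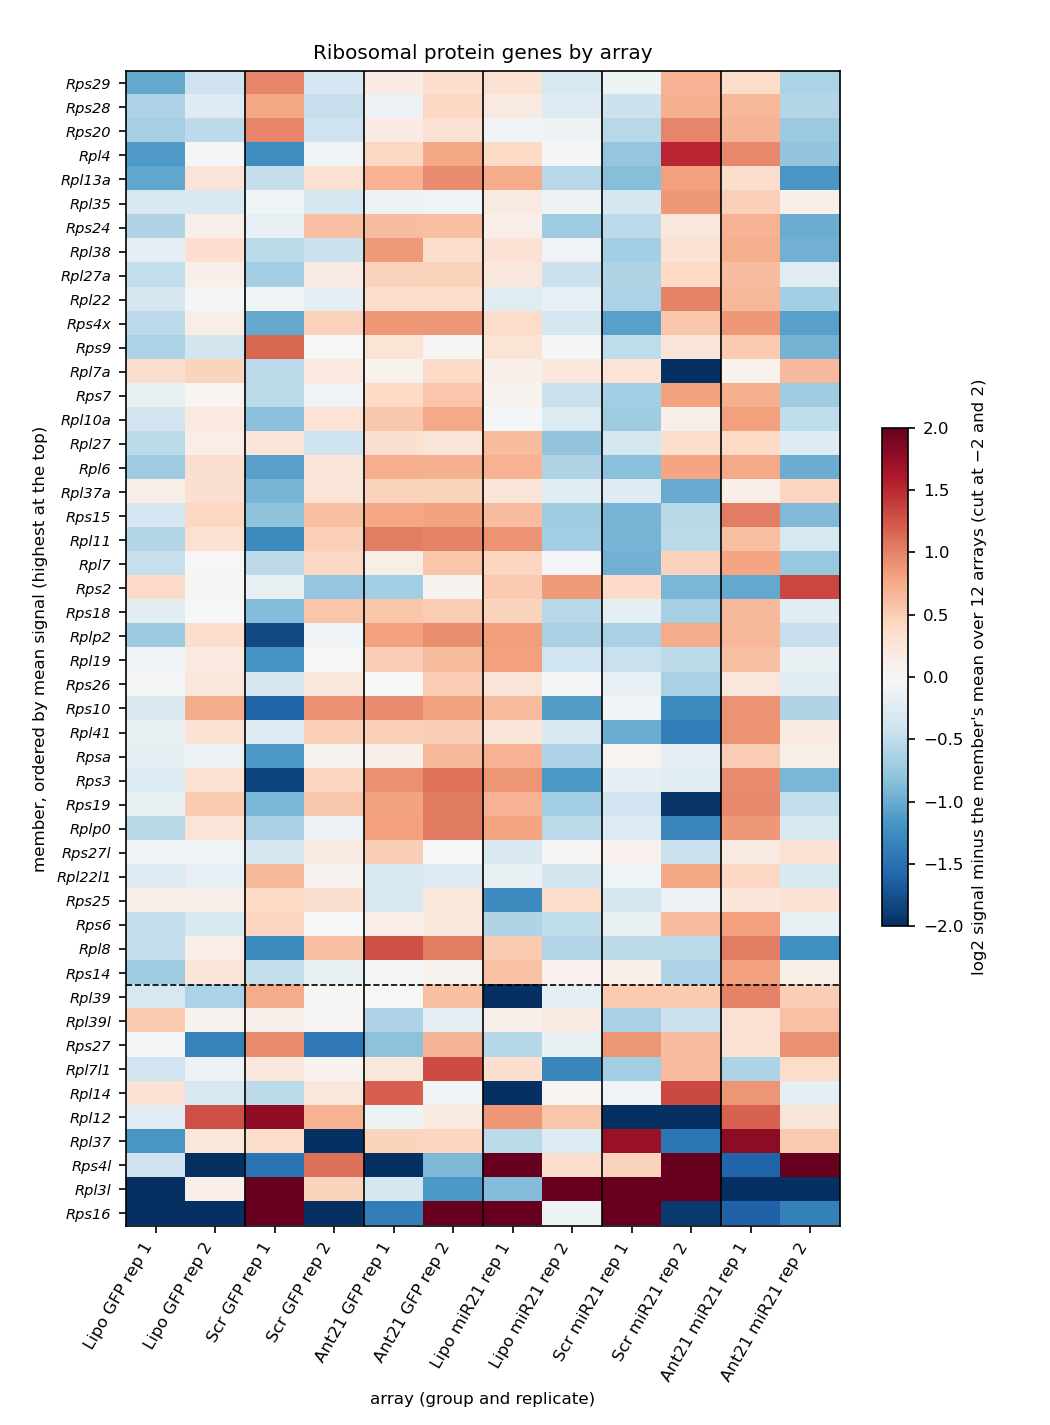
Log2 signal of the 48 ribosomal protein genes on each of the 12 arrays, as the difference from the gene's own mean (color, cut at −2 and 2), with genes ordered by mean signal and a dashed line at a mean of 10. Most bright members are red together on both arrays of antagomir-21 with GFP exosomes and on replicate 1 of antagomir-21 with miR-21 exosomes, and the dim members at the bottom move with no shared pattern.

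Most bright members moved together across arrays, and in 5 of the 6 groups the 2 arrays lay on opposite sides of the members' means. Taken as the median deviation of the 48 members from their own means, the profile was highest on antagomir-21 with miR-21 exosomes replicate 1 (0.67), where 43 of 48 members were above their mean, and on antagomir-21 with GFP exosomes replicates 1 and 2 (0.37 and 0.50). It was −0.31 on the other array of antagomir-21 with miR-21 exosomes. The lowest arrays were scramble with GFP exosomes replicate 1 (−0.49), scramble with miR-21 exosomes replicate 1 (−0.36) and lipofectamine with GFP exosomes replicate 1 (−0.35), and the second arrays of these groups stood at 0.12, 0.24 and 0.10. With miR-21 exosomes after lipofectamine, the replicates were at 0.30 and −0.28. The spread within groups, an SD of 0.43, was as large as the spread over all 12 arrays (0.39), and the 6 group means had an SD of 0.23.

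Correlations over the 12 arrays describe the same pattern. They are given with no p, since all genes share the arrays and their scaling. The median Pearson r over the 1128 pairs of the 48 members was 0.21 (Spearman rho 0.22), against −0.01 over all gene pairs and 0.17 over pairs of the 4548 genes above the third quartile. Among the 38 members with a mean of 10 or more the median r was 0.45 (rho 0.46), and among the 10 dimmer members it was 0.00 (rho 0.02). The 2876 other genes with a mean of 10 or more had a median r of 0.34. With group means removed, the 38 members had a median r of 0.48. Without the 2 arrays farthest from the median of the profile, scramble with GFP exosomes replicate 1 and antagomir-21 with miR-21 exosomes replicate 1, it was again 0.45. On probe sets without a suffix letter, which exist for 26 members, the median r over their pairs was −0.03.

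**Figure D2:**
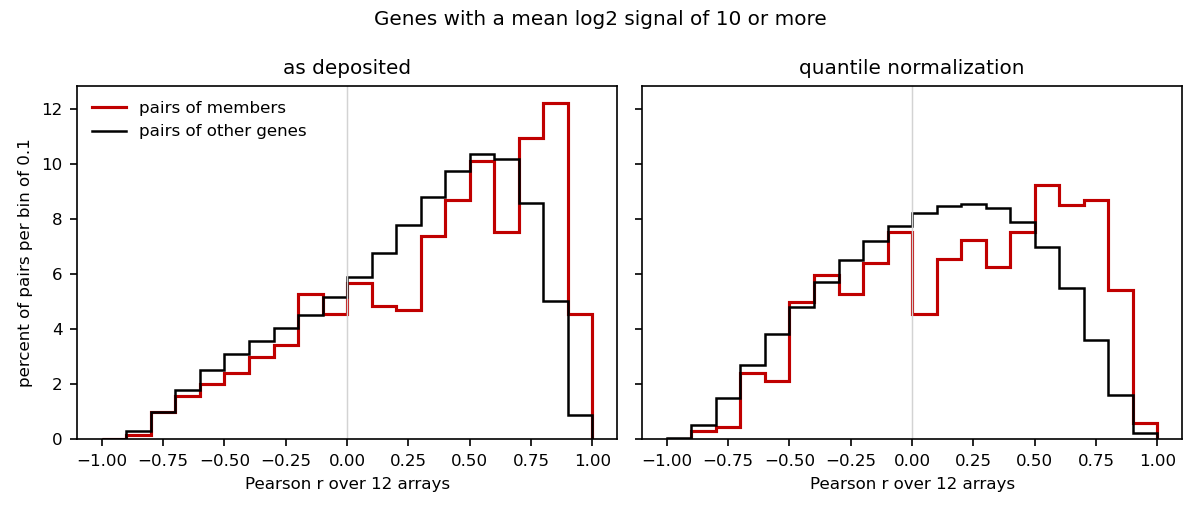
Distribution of Pearson r over 12 arrays for pairs among the 38 members with a mean signal of 10 or more (red) and for pairs among the 2876 other genes with such a mean (black), as percent of pairs in bins of 0.1, on the deposited values (left) and after quantile normalization (right). Pairs above 0.5 made up 45.4% of member pairs and 35% of other pairs as deposited, and 32.4% and 17.9% after quantile normalization.

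The common profile ran beside the width of the signal distribution on each array. The SD over all probe sets of an array ran from 2.04 to 2.48, and its correlation with the median deviation of the 38 bright members was 0.88 (rho 0.81, 12 arrays; 0.87 without the 2 arrays farthest in SD). The other bright genes gave 0.90 (rho 0.86). After quantile normalization, which gives all arrays one distribution, the correlation for the 38 members was 0.17 (rho 0.32), and their median pairwise r fell from 0.45 to 0.25. Over the other bright genes, the latter went from 0.34 to 0.12. The array SD is computed from values that include these bright genes, on arrays scaled to one trimmed mean, so these correlations describe one pattern in different ways. Other bright genes shared the movement, and its source was not tested.

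**Figure D3:**
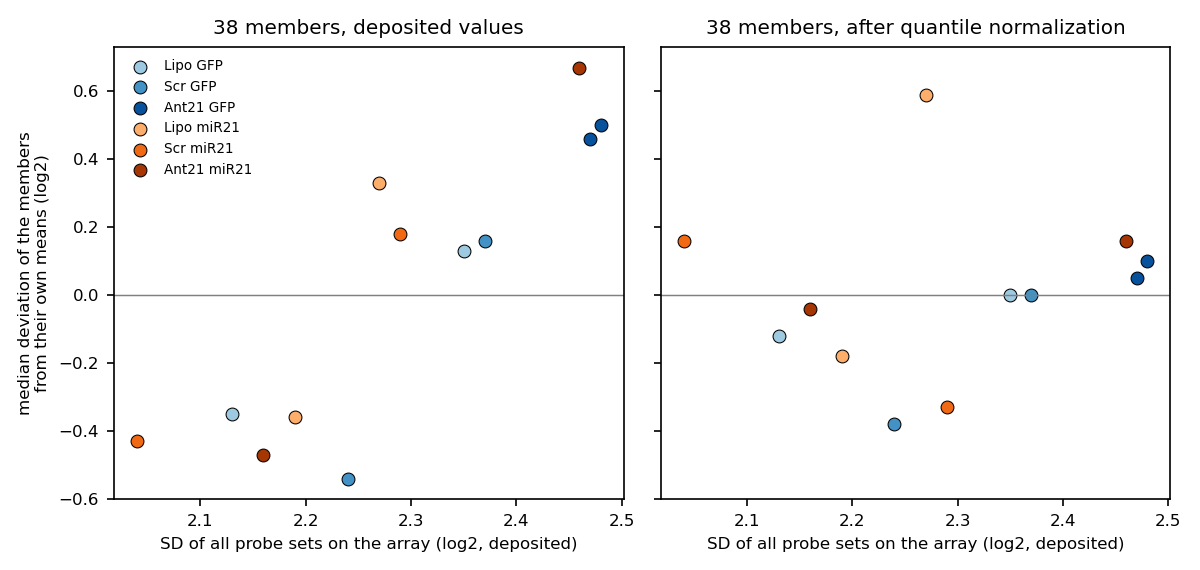
Median deviation of the 38 members with a mean signal of 10 or more from their own means (log2, vertical axis) against the SD of all probe sets on the array (log2, horizontal axis), 1 point per array, colored by group, for the deposited values (left) and after quantile normalization (right). As deposited, the 3 arrays with an SD above 2.4, all with antagomir-21, have the highest members, and after quantile normalization the relation is weak.

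Beside the common profile, the bright members split into sets that moved apart on some arrays. In a singular value decomposition of the 38 members' deviations, the first component held 58.8% of the variance and the second 23.5%, and the second had its largest score on scramble with miR-21 exosomes replicate 2 (5.09). Scores of 2.07 on scramble with GFP exosomes replicate 1 and −2.03 on antagomir-21 with miR-21 exosomes replicate 2 followed, and the other arrays lay between −1.58 and 0.76. On the array with the largest score, *Rpl4* read 17.56 against a mean of 16.03 and *Rps20* 17.15 against 16.17. *Rpl7a* read 11.79 there against a mean of 13.98, *Rps19*, a gene mutated in Diamond-Blackfan anemia, 10.21 against 12.16, and *Rplp0* 10.49 against 11.81. On scramble with GFP exosomes replicate 1, *Rps20* and *Rps29* were again high (17.14 and 18.77), while *Rps10* (10.67) and *Rps3*, which sits at the mRNA entry site (10.39), were at their lowest. On antagomir-21 with miR-21 exosomes replicate 2 the order was turned, with *Rpl7a* (14.63) and *Rps2* (14.07) at their highest and *Rps20* (15.42) at its lowest. Among the pairs with the highest and lowest correlations, *Rps20* with *Rps28* had an r of 0.96, *Rps10* with *Rps18* 0.96 and *Rpl6* with *Rps4x* 0.96, whereas *Rpl7a* with *Rps20* had −0.73 and *Rps2* with *Rps24* −0.84. Members that followed the median of the others most closely were *Rpl11*, a large subunit protein that also binds Mdm2 (r = 0.96), and *Rplp0* (0.95). Those farthest from it were *Rpl3l* (−0.57), *Rps27* (−0.44) and *Rps25* (−0.39), each on its kept probe set. A shared probe set that lists *Rps25*, with a mean of 14.17, had an r of 0.98 with the median of the bright members. Its r with the kept *Rps25* probe set was −0.17. The shared *Rps27* probe set did not correlate with the median of the bright members. Members with a pyrimidine run near the annotated start were not the more coherent ones. Among bright members with a promoter in the table, the median r was 0.35 over 21 genes with the run and 0.57 over 12 without, and the difference was not tested.

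Different probe sets of a single gene did not always tell the same story. Of the 48 members, 24 had more than 1 probe set annotated to them alone. For *Rps28* (3 probe sets), all pairs correlated at 0.92 to 0.94 and for *Rps29* (3) at 0.80 to 0.91. For *Rps15* (2) the r was 0.85. In contrast, the median r was −0.34 over the 6 probe sets of *Rpl35* (−0.69 to 0.78) and −0.28 over the 4 of *Rps20* (−0.42 to 0.98), where means of single probe sets reached down to 6.03 and 8.06. The bright probe sets that name several loci, which entered no member, had a median deviation per array that correlated at 0.98 (rho 0.90) with that of the 38 bright members.

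No member passed an adjusted p under 0.05 in any of the 7 comparisons made with limma (Benjamini-Hochberg over 18193 genes), and neither did any other gene, a background of 0.00%. At an unadjusted p under 0.05, between 0 and 2 of the 48 members passed in each comparison, which was below the share of all genes in every comparison. The smallest exact 2-sided permutation p that 2 arrays against 2 can give is 0.333. Comparisons that use the same group share those arrays.

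**Figure D4:**
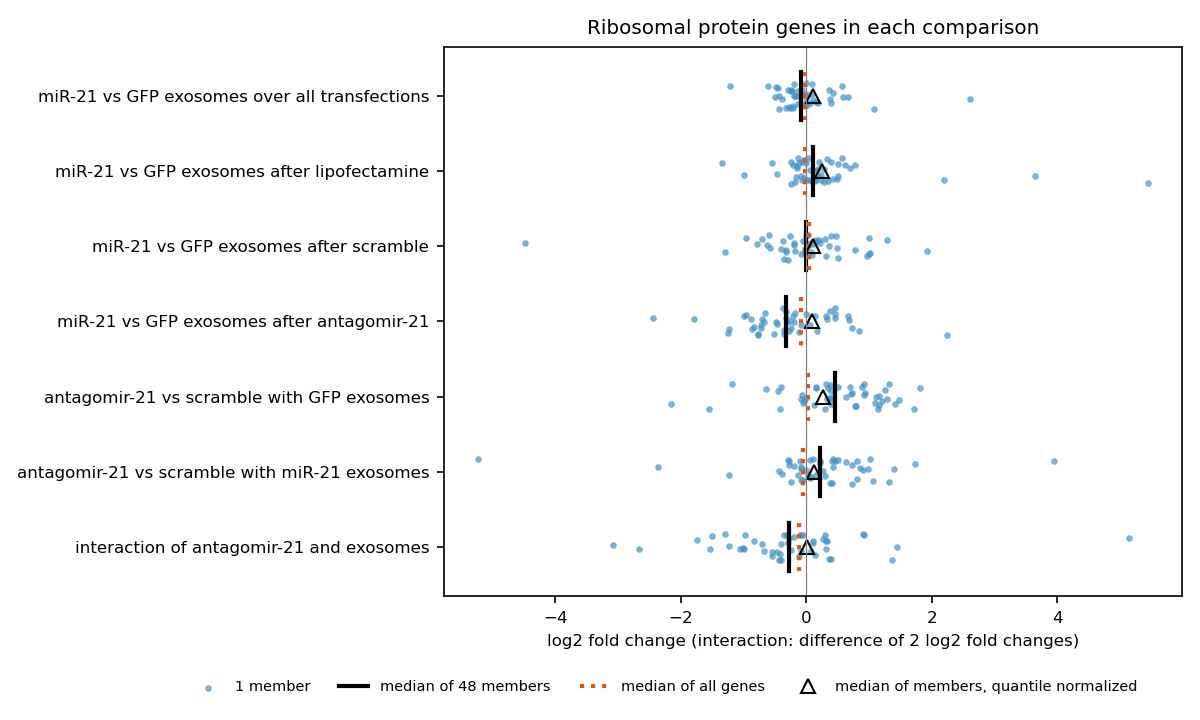
Log2 fold change of each of the 48 members (blue points) in the 7 comparisons, with the median of the members (black bar), the median of all genes (dotted bar) and the median of the members after quantile normalization (open triangle). The member medians lie within 0.5 of zero, those for the exosomes over all transfections and after antagomir-21 and for the interaction change sides after quantile normalization, and *Rpl12*, *Rpl3l*, *Rps4l* and *Rps16* give the far points.

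Over all transfections, miR-21 exosomes were compared with GFP exosomes on 12 arrays with the transfection as a term. With miR-21 exosomes, 18 of 48 members were higher, where 49.0% of all genes were. The median log2 difference of the members was −0.08, and that of all genes was −0.02. Among the 38 bright members 11 were higher (median −0.11), with 503 of 2876 other bright genes (17.5%, median −0.28). Without the paralogs, 9 of 20 small subunit and 4 of 22 large subunit genes were higher. After quantile normalization, the member median was on the other side of zero (0.11, with −0.06 for all genes). The member with the smallest p was *Rps4l*, a paralog of the X-linked *Rps4x*. It read 5.57 and 2.48 with GFP and 8.98 and 6.34 with miR-21 exosomes after lipofectamine, 4.50 and 7.08 against 6.44 and 8.98 after scramble, and 3.39 and 5.08 against 4.38 and 8.57 after antagomir-21. Values of the exosome groups overlapped in the scramble and antagomir-21 arms. The log2 difference was 2.60 (SE 0.94, unadjusted p = 0.0175, adjusted p = 0.828 by limma), and it was the only member of 48 at an unadjusted p under 0.05, where 5.36% of all genes passed. *Rps4x* itself correlated with it at −0.17 over the 12 arrays. In the remaining paralogs, the differences lay between −0.44 (*Rpl7l1*) and 0.09 (*Rpl22l1*), apart from *Rpl3l* (0.57, SE 0.86).

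After lipofectamine, 29 of 48 members were higher with miR-21 exosomes, with a median log2 difference of 0.11 (all genes −0.02). None passed an unadjusted p under 0.05, whereas 3.84% of all genes did. The widest difference was that of *Rps16*, which read 1.15 and 2.07 with GFP exosomes and 9.37 and 4.76 with miR-21 exosomes (5.45, SE 2.60, adjusted p = 0.999 by limma). This probe set varied by as much within other groups, such as 9.10 and 1.94 after scramble with GFP exosomes. Leaving out 1 array at a time moved the member median from −0.17, without replicate 1 of lipofectamine with GFP exosomes, to 0.51, without replicate 2 of lipofectamine with miR-21 exosomes.

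After scramble, the difference between exosomes turned on *Rpl12*. Its product lies at the base of the stalk, the arm of the large subunit that binds translation factors. The *Rpl12* probe set read 9.62 and 8.55 with GFP exosomes and 4.50 and 4.72 with miR-21 exosomes after scramble. On the other 8 arrays it lay between 7.62 and 9.14, so that both arrays of scramble with miR-21 exosomes were below all others. The log2 difference was −4.48 (SE 0.90, unadjusted p = 0.000516, adjusted p = 0.652 by limma), and it lay between −5.01 and −3.94 when any 1 of the 4 arrays was left out and at −4.95 after quantile normalization. The spread within groups was 0.62 for *Rpl12* and had a median of 1.53 over the 4078 genes within 0.5 of its mean signal, of which 9 (0.221%) had a difference at least as large. Over all genes these were 93 (0.511%). *Rpl12* was singled out with earlier results of these data known. These values therefore describe the difference on the arrays that showed it and are no independent support for it.

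The shared probe sets that list *Rpl12* did not show this difference. The one that also names Gm11425 read 11.67 and 13.10 with GFP exosomes after scramble and 12.53 and 11.90 with miR-21 exosomes, a log2 difference of −0.17 (SE 1.05). The one that also names Gm15793, Gm32899 and Gm11425 read 13.57 and 13.24 against 13.48 and 13.81, a difference of 0.24 (SE 1.03). Over the 12 arrays, they correlated with the *Rpl12* probe set at 0.26 and 0.11, and with the median of the bright members at 0.94 and 0.74. The probe sets thus differ in what they report on the same arrays, and which of them reads the *Rpl12* mRNA in these cells was not tested.

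**Figure D5:**
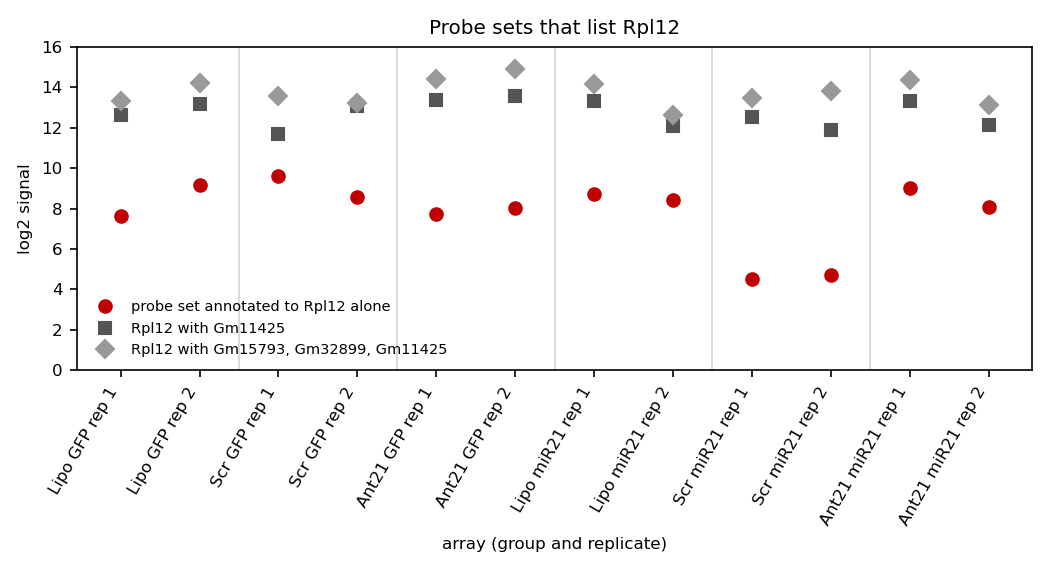
Log2 signal of the 3 probe sets that list *Rpl12* on the 12 arrays: the probe set annotated to *Rpl12* alone (red circles) and those that also name other loci (grey squares and diamonds). The red circles are at 4.50 and 4.72 on both arrays of scramble with miR-21 exosomes, and the grey symbols there stay between 11.90 and 13.81.

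*Rpl12* was the only member at an unadjusted p under 0.05 in this comparison, against 5.70% of all genes. Of the members, 24 were higher and 24 lower, with a median of 0.00 (all genes 0.04), which lay between −0.20 and 0.37 when 1 array was left out (leaving out replicate 1 of the GFP arm and replicate 1 of the miR-21 arm, respectively). *Rpl41*, the smallest ribosomal protein, was the other member for which both arrays of scramble with miR-21 exosomes (11.27 and 10.87) lay under the other 10 arrays (11.94 to 13.16), a pattern met by 1.46% of all genes. Its log2 difference was −1.30 (SE 0.82, adjusted p = 0.979 by limma). The *Rpl41* probe set without a suffix letter gave 1.25, and another *Rpl41* probe set read 11.72 and 12.30 on those arrays and 11.62 and 12.26 with GFP exosomes. The last *Rpl41* probe set read 9.02 and 8.92 on those arrays and 9.58 and 10.08 with GFP exosomes, the direction of the kept one.

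After antagomir-21, 34 of 48 members were lower with miR-21 than with GFP exosomes, with a median log2 difference of −0.32 (all genes −0.08). None passed an unadjusted p under 0.05, compared with 5.68% of all genes. The 2876 other genes with a mean of 10 or more had a median of −0.48, and the 38 bright members −0.34. The smallest p in each direction belonged to *Rpl3l* (−1.79, SE 1.35) and *Rps4l* (2.24, SE 1.74), both with an adjusted p of 1.0 by limma. *Rpl8* read 11.93 and 11.67 with GFP and 11.68 and 9.42 with miR-21 exosomes (−1.25, SE 1.04, adjusted p = 1.0 by limma), and *Rpl13a*, known for its role in interferon-gamma–controlled translation in myeloid cells, read 15.56 and 15.82 against 15.22 and 13.71 (−1.23, SE 1.02). In both genes 1 array of the pair carried the difference. The member median was 0.12 without replicate 2 of antagomir-21 with miR-21 exosomes, −0.74 without replicate 1 and 0.09 after quantile normalization, where all genes had −0.17.

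With GFP exosomes, antagomir-21 against scramble had the widest member median of the 7 comparisons. Of the 48 members, 36 were higher after antagomir-21, with a median log2 difference of 0.45 against 0.03 for all genes, of which 51.2% were higher. Among 38 bright members 31 were higher (median 0.70), with 20 of 22 large subunit genes (median 0.85), 14 of 20 small subunit genes (median 0.32) and 2 of 6 paralogs (median −0.55). Other bright genes were higher as well, 2125 of 2876 (73.9%) with a median of 0.33, and so were 8 of 10 macrophage marker genes (median 0.91). No member passed an unadjusted p under 0.05, where 5.38% of all genes did. *Rplp2*, a stalk protein, read 10.77 and 12.52 after scramble and 13.39 and 13.50 after antagomir-21 (1.81, SE 1.03, adjusted p = 0.991 by limma). The stalk protein *Rplp0* read 11.16 and 11.69 against 12.62 and 12.85 (1.31, SE 0.92), *Rps3* 10.39 and 12.66 against 13.14 and 13.32 (1.71, SE 1.11), and *Rpl11* 11.96 and 13.71 against 14.26 and 14.23 (1.41, SE 0.97). In these 4 genes scramble replicate 1 was the lowest of the arrays compared. *Rpsa*, the laminin receptor protein of the small subunit, read 11.10 and 12.32 against 12.36 and 12.90 (0.92, SE 0.88).

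The antagomir-21 arrays in that comparison were the 2 with the widest signal distribution (SD 2.47 and 2.48, against 2.24 and 2.37 with scramble). After quantile normalization, the member median was 0.26, where that of all genes was 0.13, and 29 of 48 members were higher. On the probe sets without a suffix letter, which exist for 26 members, the median was 0.06. For all 48 members on their kept probe sets, the median was 0.36 without scramble with GFP exosomes replicate 1 and 0.75 without replicate 2.

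Antagomir-21 against scramble with miR-21 exosomes left 31 of 48 members higher, with a median of 0.22 (all genes −0.05). Here *Rpl12* read 9.03 and 8.09 after antagomir-21 against 4.50 and 4.72 after scramble (3.95, SE 0.90, unadjusted p = 0.00127, adjusted p = 0.550 by limma). The same 2 scramble arrays entered the comparison of exosomes above. The shared probe sets that list *Rpl12*, in the order given above, had differences of 0.51 (SE 1.05) and 0.13 (SE 1.03). *Rpl3l*, a paralog of *Rpl3* best known from muscle, differed in the other direction, with 8.89 and 8.42 after scramble and 3.65 and 3.19 after antagomir-21 (−5.24, SE 1.35, unadjusted p = 0.00289, adjusted p = 0.567 by limma). Its other 8 arrays ran from 2.81 to 8.33, so the scramble arrays were above all others while lipofectamine with GFP exosomes replicate 1, at 2.81, lay under the antagomir-21 arrays. These 2 members compare with 5.30% of all genes at the same threshold. *Rpl41* read 13.16 and 12.44 against 11.27 and 10.87 (1.73, SE 0.82, adjusted p = 0.947 by limma), and −0.02 on its probe set without a suffix letter. Its remaining probe sets read 9.67 and 10.86 against 9.02 and 8.92, and 11.77 and 13.06 against 11.72 and 12.30. The member median depended on 1 array: it was −0.16 without replicate 1 of the antagomir-21 arm, 0.65 without its replicate 2, 0.02 without scramble replicate 1 and 0.48 without scramble replicate 2.

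The interaction asked whether the effect of antagomir-21 differed between the exosomes, or, equally, whether that of the exosomes differed between antagomir-21 and scramble. The member median was −0.28, with −0.12 for all genes, and 32 of 48 members were below zero, where 47.1% of all genes were above it. The 38 bright members had a median of −0.27, and so had the 2876 other genes with a mean of 10 or more (34.7% above zero). After quantile normalization the member median was 0.01. *Rpl12* was the only member at an unadjusted p under 0.05, against 5.36% of all genes (5.14, SE 1.27, unadjusted p = 0.00224, adjusted p = 0.627 by limma). The same low scramble arrays with miR-21 exosomes entered this value. Its shared probe sets, in the order given above, had −0.58 (SE 1.48) and −1.15 (SE 1.46), of the opposite sign. Leaving out antagomir-21 with miR-21 exosomes replicate 1 or 2 moved the member median to −0.83 or 0.08.

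The paralogs, some of which can replace their parent protein in the ribosome, showed no common direction. *Rps27l* lay between 11.11 and 12.04 on all arrays, and its log2 differences were within −0.08 and 0.41 in all 7 comparisons. *Rpl22l1*, whose expression is known to be held down by Rpl22, had 11.28 ± 0.39 and *Rpl22* 14.38 ± 0.50 (SD, n = 12). Both kept probe sets were highest on scramble with miR-21 exosomes replicate 2 (12.05 and 15.38), and their r was 0.56. The 3 probe sets of *Rpl22* correlated with each other at −0.38 to 0.72. On that array the other *Rpl22* probe sets read 10.97 and 9.88, against means of 11.38 and 8.6. *Rpl39l*, a paralog enriched in testis, had 9.61 ± 0.40 and did not follow *Rpl39* (r = −0.12). *Rpl7l1* had 8.92 ± 0.69 and an r of 0.29 with *Rpl7*, and *Rps27l* one of −0.23 with *Rps27*. For the dim parents *Rps27* and *Rpl39*, these values rest on the single probe sets described above.

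Other genes of protein synthesis, from lists written down with earlier results of these data known, were read beside the members. Of 34 measured translation factors, 30 lay above the third quartile of all genes, and the median of their deviations followed that of the members across arrays (r = 0.91). With antagomir-21 against scramble and GFP exosomes, 25 of 34 were higher (median 0.62), none with an unadjusted p under 0.05. Of all genes 51.2% were higher there, and of the 2876 bright genes outside the members 73.9% (median 0.33). In antagomir-21 cells, 1 of 34 was higher with miR-21 than with GFP exosomes (median −0.60), again with none at that threshold. There 47.3% of all genes and 17.6% of the same bright genes (median −0.48) were higher. *Eif3d*, a subunit of the initiation factor that binds the small subunit, had the smallest p among the translation factors. Its log2 difference was −4.16 (SE 1.02, adjusted p = 0.658 by limma) for exosomes after scramble and 4.51 (SE 1.02, adjusted p = 0.550 by limma) for antagomir-21 with miR-21 exosomes. Of 43 ribosome biogenesis genes, 31 were higher after antagomir-21 with GFP exosomes (median 0.36), 2 of them at an unadjusted p under 0.05 and 0 lower, against 5.38% of all genes. With miR-21 exosomes, 26 were higher (median 0.23), with 3 up and 1 down of 43 at that threshold, against 5.30% of all genes. *Ubtf*, which binds ribosomal DNA, had a difference of 3.67 in the latter (SE 0.96, adjusted p = 0.567 by limma). The 76 mitochondrial ribosomal proteins, which belong to a separate ribosome, had medians of 0.30 and −0.15 in the same comparisons, and at most 5 of the 76 passed an unadjusted p under 0.05 in any comparison (3 up and 2 down for exosomes after scramble, against 5.70% of all genes). *Fau*, whose product carries a small subunit protein under another name, had 12.22 ± 0.92 and *Rps3a1*, a small subunit gene that the symbol rule misses, 14.06 ± 0.81 (SD, n = 12).

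Of 10 macrophage genes, 6 lay above the third quartile of all genes, with *Lyz2* at 16.94, *Csf1r* at 16.43, *Cd68* at 13.27 and *Adgre1* at 12.87. The other 4 were *Timd4* (8.88), *Gata6* (8.78), *Itgam* (8.47) and *Icam2* (8.43), of which *Gata6*, *Icam2* and *Timd4* are known from resident peritoneal macrophages. Of lists of about 10 markers each, 2 B cell genes, 1 mast cell gene and none of the T and NK cell, granulocyte, mesothelial and sensory neuron genes lay above it. The brightest of these was the B cell gene *Ms4a1* at 12.41. No probe set of these lists was read at zero on all arrays. The macrophage list had a mean of 10.60 to 12.15 over the arrays and its median deviation followed the members (r = 0.93). The mean of the T and NK cell list ran from 5.36 to 7.85 and that of the mesothelial list from 6.38 to 8.21, and both were lower where the arrays were wider (r = −0.86 and −0.76 with the array SD). Their part in the ribosomal protein values was not tested. In bulk RNA, fewer cells of a type and less RNA per cell cannot be told apart.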

How the data were processed

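RNA of PMs was measured on 12 Affymetrix mouse expression arrays, which the labels place in 6 groups of 2. Independently collected triplicates are stated in the methods, and 2 arrays per group were analyzed. Amplification kits differ between sources (NuGEN in the labels, WT Pico in the methods). Signals were deposited by the authors as log2 values per probe set, scaled on each array to a common mean (2% trimmed means of 496 to 499). The methods name RMA and quantile normalization with the affy package, but the deposited columns do not share a distribution (SD 2.04 to 2.48), and no source consulted gives the software that made them. Values ran from 0 to 19.26, with 11 at 0, and their distance from background is unknown. The number of arrays limits the precision.

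Of 45037 probe sets, 34945 carried 1 symbol, 932 several and 9160 were not listed in the platform annotation; symbols of 34741 were updated through RefSeq gene IDs. The 18193 genes were each read through the probe set with the highest mean. All genes were fitted with limma 3.58.1 in R 4.3.3 on group means (6 residual degrees of freedom), or on exosomes plus transfection over 12 arrays. The interaction was antagomir-21 against scramble with miR-21 exosomes minus the same with GFP exosomes. The fit was tested on simulated data. The members, lists and comparisons were chosen with earlier results of these data known, so no list was tested and no pattern already seen counts as independent support. Named genes were *Rpl12*, paralogs with their parents, stalk genes, *Rpsa*, the brightest and dimmest, the most and least variable or coherent, and, in each comparison, those with the smallest p in each direction; fewer were named than this allows, and others only where a split or a shared probe set was described, after their values were seen. Alternatives were quantile normalization, median centring, other choices of probe sets, a signal filter, a variance trend, the methods' unpaired t-test, a replicate block and leaving out each array. Sequences came from the RefSeq promoter table (GRCm38.p6), which held 42 of the 48 members.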

Additional observations from a re-analysis of the deposited data

How the results depend on the processing

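No member passed an adjusted p under 0.05 under any alternative run. At an unadjusted p under 0.05, member counts moved as follows, given with the share of all genes or probe sets in the same fit. With only genes above the median signal tested, 0 members passed for exosomes over all transfections, after scramble and in the interaction, and 1 for antagomir-21 with miR-21 exosomes (3.54% to 4.33% of genes in these 4, and 211 to 394 genes per comparison against 698 to 1037). Counting only members above that median, chosen after seeing the data, gave 0 in each of these 4. The members that passed in the main fit, *Rpl12* (7.85), *Rps4l* (5.98) and *Rpl3l* (5.96), lie under that median (7.91). Both choices therefore left them out before any count. A variance trend gave 1 member after lipofectamine (3.39%), 2 after scramble (4.28%), and 2 and 3 for antagomir-21 with GFP (4.47%) and miR-21 exosomes (3.90%). The methods' unpaired test gave 1 (5.16%), 3 (4.50%), 2 (5.78%) and 4 (4.54%) in the same comparisons. Of 214 probe sets listing a member symbol, alone or with others, also chosen after seeing the data, 1, 3 and 1 passed for exosomes after lipofectamine, scramble and antagomir-21, 2 and 5 for antagomir-21 with GFP and miR-21 exosomes, and 4 in the interaction, each at most 2.34% of these probe sets, against 3.88% to 6.11% of all. Quantile normalization gave 2 in the interaction (5.37%). Leaving out 1 array, with the lone array of its group taken to vary like the others, gave 1 to 4 members after lipofectamine (4 without replicate 2 of the miR-21 arm, where 9.94% of genes passed), 0 to 1 after antagomir-21 (1 where 6.91% passed) and 2 to 3 for antagomir-21 with miR-21 exosomes (3 where 7.22% passed). Member medians then ran from −0.74 to 0.12 for exosomes after antagomir-21, −0.16 to 0.65 for antagomir-21 with miR-21 exosomes and −0.83 to 0.08 in the interaction. Median centring moved the median of all genes by up to 0.22 and the members with it. The *Rpl41* differences turned to 1.25 and −0.02 on probe sets without a suffix letter. The median signal was 11.37 with all probe sets of a gene averaged and 8.75 on those without a suffix letter, and the median pairwise r was 0.38 after median centring, −0.03 without suffixed probe sets and 0.32 for members above the median signal. Causes of the other moves were not tested. Over all genes, replicate numbers showed no common pairing of the arrays (15 correlations of deviations between groups, −0.192 to 0.167). Over the members the 15 correlations ran from −0.621 to 0.488. With the replicate block the member medians remained at −0.08, 0.11, 0.00, −0.32, 0.45, 0.22 and −0.28, in the order of the report, with member counts of 1, 0, 1, 0, 0, 2 and 1 and 3.94% to 5.75% of genes.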
